A study of Mus musculus with 72 samples.

Results

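Hepatocyte nuclei of C26 tumour-bearing mice were compared between cachexia and the pre-cachexia stage, 4 animals against 4, which is 8 of the 72 libraries of the study. All genes of the table were members of the comparison: 20105 genes were listed and 13274 passed the filter on low counts. Nuclear RNA was sequenced from Hep-INTACT mice, which carry CAG-Sun1/sfGFP (a fluorescent tag on the nuclear envelope, silent until Cre acts) and Albumin-Cre (Cre under the albumin promoter, active in hepatocytes). Tagged nuclei were pulled down from liver as hepatocyte nuclei, and whole liver nuclei of the same animals were sequenced beside them.

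The pre-cachexia and the cachexia animals were BALB/c mice that had received C26 colon carcinoma cells, and 4 BALB/c mice injected with PBS served as their controls. Set beside them as a separate experiment were C57BL/6N mice, 4 that had received 8025 tumour cells and had become cachectic and 4 that had received PBS. Every animal carried both transgenes, so no group was free of the tag or of Cre. Livers were collected at ZT 9 (hours after lights on), and C26 and 8025 animals were taken once weight loss was above 10%. The labels do not give the hour or the weight of the pre-cachexia animals separately, and give no sex. Each hepatocyte library came from its own animal, so both stages are different animals and not repeated samples. The tests also draw their estimate of spread from the other hepatocyte libraries of the study, which include mice with weight-stable NC26 (BALB/c) or MC38 (C57BL/6N) tumours and the PBS controls of each, 4 animals a group.

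Cachexia is a wasting syndrome of cancer in which muscle and fat are lost. The liver takes part in it as the source of acute phase proteins, which hepatocytes make when interleukin-6 and related cytokines signal through gp130 receptors, JAK kinases and STAT3. Liver also answers glucocorticoids from the adrenal gland, growth hormone from the pituitary (through STAT5, with sex-dependent targets), insulin, and its own circadian clock. It turns amino acids released by muscle into glucose, ketone bodies and urea.

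The libraries held 21.5 to 56.4 M counts in pre-cachexia, 26.9 to 40.4 M in cachexia and 20.05 to 27.8 M in PBS controls (M, mega). Counts were taken over whole gene spans with introns (per the file headers). Levels are given below as CPM, the usual depth-scaled read count, computed on TMM-scaled library sizes, always in the order of animals 1 to 4, and they can be compared for 1 gene between animals but not between genes of different length. Hepatocyte markers were abundant in every library: their summed level was 11700 to 14070 CPM in pre-cachexia and 17560 to 28790 CPM in cachexia. Markers of other cells were not absent. The 19 Kupffer cell and macrophage markers summed to 252 to 377 CPM in pre-cachexia and 261 to 340 CPM in cachexia, 29.1% and 29.8% of their level in whole liver nuclei. Endothelial (18.5% and 22.5%) and stellate cell markers (20.3% and 19.1%) were also lower than in whole liver nuclei. So were markers of neutrophils (16.6% and 18.5%), T and NK cells (34.4% and 32.2%) and B and plasma cells (12.3% and 18.2%). Cholangiocyte (110% and 108%) and myeloid markers (108% and 104%) were not lower, and hepatocyte markers were at 98.1% and 89.4%. The myeloid sum was nearly all Fn1 in cachexia, a gene that hepatocytes also express, so its share says little about myeloid nuclei. Erythroid markers were at 101% and 64.7%. Fewer nuclei of a type and less RNA per nucleus cannot be told apart in such bulk libraries.

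Between pre-cachexia and cachexia 636 genes rose (4.79% of those tested) and 567 fell (4.27%), by edgeR's quasi-likelihood test with Benjamini-Hochberg adjusted p under 0.05 over all 13274 genes. At least 2-fold changes were fitted for 300 of the genes that rose and 364 of those that fell. All 4 cachexia values lay above all 4 pre-cachexia values for 1028 genes (7.74%) and below them for 664 (5.0%), and 878 genes were both called and free of overlap. Rising genes included acute phase proteins, glucocorticoid-induced genes, enzymes of amino acid breakdown and genes known to be female-biased in liver. Falling genes included interferon-induced genes, male-biased genes and major urinary proteins, mitotic genes, and part of the fatty acid oxidation and drug metabolism genes. The count rests on the shared spread of all 36 hepatocyte libraries: 341 rose and 256 fell when the 8 libraries were fitted alone. Without cachexia animal 4 the counts were 283 and 276, and without pre-cachexia animal 2 they were 324 and 272.

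**Figure D1:**
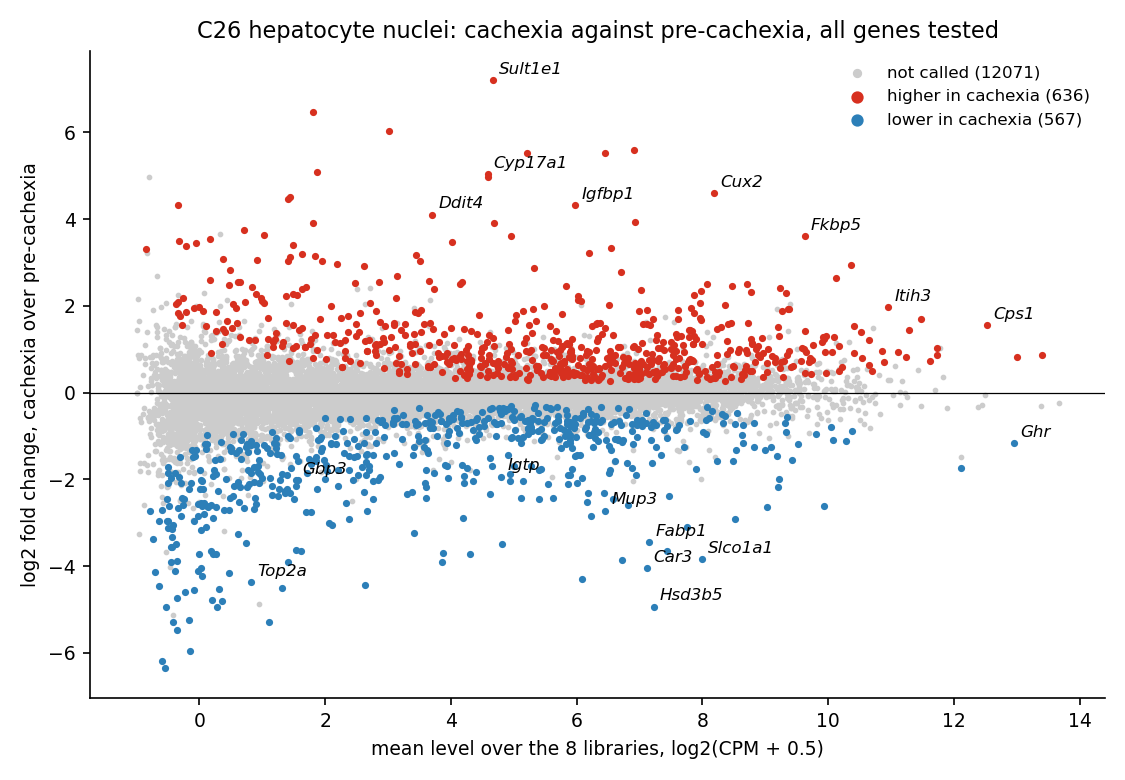
Each point is 1 of the 13274 genes tested, with its mean level over the 8 libraries on the x axis, log2(CPM + 0.5), and its log2 fold change of cachexia over pre-cachexia on the y axis. Red points are the 636 genes that rose, blue points the 567 that fell, and grey points were not called; among genes of at least 5 CPM, Sult1e1 lies highest with 7.20 and Hsd3b5 lowest with -4.94.

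Sult1e1, the sulphotransferase that inactivates oestrogens, had the largest rise of the genes averaging 5 CPM or more over the 8 libraries. It reached that average through the cachexia animals alone, as no pre-cachexia value was above 0.66 CPM. The size of its rise therefore rests on a very low starting level. Its level was 0.165, 0.0996, 0.495 and 0.66 CPM in the pre-cachexia animals and 2.72, 49.2, 18.8 and 127 CPM in the cachexia animals. Every cachexia animal stood above every pre-cachexia animal, yet the 4 cachexia animals themselves spread widely, with animal 1 lowest and animal 4 highest. The fitted log2 fold change was 7.20 ± 1.01 (SE), adjusted p = 3.26e-05. Other genes among the 12 largest rises were Fam107a (6.02), Atp6v0a4, a subunit of the vacuolar proton pump (5.53), Cyp17a1, the steroid 17-hydroxylase (5.04), and Lppr1 (4.97). Lppr1 did not overlap between the groups, with 1.24, 0.863, 2.03 and 1.86 CPM in pre-cachexia and 23.1, 22.1, 57.1 and 81.2 CPM in cachexia. The gene for the BMP-binding protein Bmper also rose, with a log2 fold change of 3.94. At the other end stood Hsd3b5, a steroid dehydrogenase of male liver, at 83.1, 349, 385 and 338 CPM in pre-cachexia and 25.1, 4.9, 1.98 and 6.02 CPM in cachexia. Serpina9 (-4.43), Nrep (-4.30), Car3, a carbonic anhydrase (-4.05), and the organic anion carrier Slc22a28 (-3.86) fell as well. Serpina9 and Nrep were uneven in pre-cachexia, where animal 1 was the lowest of the 4 for both, at 0.988 and 17.5 CPM.

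Acute phase proteins, which the liver secretes into plasma during inflammation, rose further between both stages. Of 28 tested, 11 rose and none fell, 26 had a positive log2 fold change, and the median was 1.14, beside -0.01 over all genes tested. Serpina3n, a protease inhibitor, was at 285, 69.8, 302 and 107 CPM in pre-cachexia and at 1392, 701, 1065 and 885 CPM in cachexia, a 5.3-fold rise with adjusted p = 0.000358. Itih3, a hyaluronan-binding inter-alpha-trypsin inhibitor chain, was at 1238, 339.7, 1362 and 278 CPM and then at 3427, 3110, 2850 and 3254 CPM. Lbp, which carries bacterial lipopolysaccharide to its receptor, was at 209, 41.6, 228 and 45.5 CPM and then at 760.3, 494, 496 and 358 CPM. The pre-cachexia animals fell into unlike pairs for these genes: animals 1 and 3 were high, while animals 2 and 4 were close to the PBS controls, whose Lbp was 65.7, 44.5, 40.8 and 49.5 CPM. All 4 cachexia animals were above all 4 pre-cachexia animals for Serpina3n, Itih3 and Lbp.

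The copper carrier ceruloplasmin, Cp, was not called in the first step: it was at 279.6, 248, 349 and 318 CPM in PBS controls, 292, 149.9, 412 and 242 CPM in pre-cachexia and 1077, 828, 628 and 1608 CPM in cachexia. Part of its span (26.2%) overlaps Hps3 on the other strand. Its log2 fold change was 1.92 ± 0.37 (SE) between both tumour stages and -0.12 between PBS and pre-cachexia (adjusted p = 0.875), and the difference between these steps did not pass the test (adjusted p = 0.0822). Saa1, serum amyloid A, was called in the first step and not in the second. It was at 15.1, 12.2, 6.47 and 3.32 CPM in PBS controls, 317, 13.6, 339 and 17.6 CPM in pre-cachexia and 404, 335, 481 and 217 CPM in cachexia. Its log2 fold change was 4.21 in the first step (adjusted p = 0.00304) and 1.07 ± 0.75 (SE) in the second (adjusted p = 0.439), and the steps were not shown to differ (adjusted p = 0.169). Pre-cachexia animals 2 and 4 were close to the PBS level of Saa1, so the first-step call rests on animals 1 and 3. Over the list, 17 of 28 rose and none fell between PBS and pre-cachexia, where 4.77% of all genes rose and 2.95% fell, with a median of 1.37. Both steps share the pre-cachexia animals, so their values are set side by side and no likeness is computed. The count of 11 depends on which libraries enter: it was 5 without pre-cachexia animal 2 or without pre-cachexia animal 4, and 2 when the 8 libraries were fitted alone.

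The fibrinogen chains and serum amyloid P are shown by promoter because a STAT-type palindrome stands there. Fga was at 693, 627, 1493 and 424 CPM in pre-cachexia and 2762, 1968, 1940 and 1798 CPM in cachexia, Fgb at 889, 698, 1773 and 535 and 3132, 1829, 2159 and 1879 CPM, and Apcs at 26.2, 7.52, 33.3 and 9.09 and 60.6, 46.9, 67 and 46.8 CPM. Their log2 fold changes were 1.39 ± 0.34 (SE), 1.21 ± 0.39 (SE) and 1.55 ± 0.41 (SE), and none of the 3 overlapped between the stages. Fgb was close to the threshold (adjusted p = 0.0446) and lost its call under 11 of 15 alternative settings. The 250 bases before the RefSeq start (assembly GRCm38.p6, gene strand, 5′ to 3′) are given for Fga (chr3:83025903-83026152, plus strand), Fgb (chr3:83049864-83050113, minus strand, ending 73 bases from the start in the count table) and Apcs (chr1:172895055-172895304, minus strand), with the palindrome TTC, 3 bases of any kind, GAA in capitals.
Fga: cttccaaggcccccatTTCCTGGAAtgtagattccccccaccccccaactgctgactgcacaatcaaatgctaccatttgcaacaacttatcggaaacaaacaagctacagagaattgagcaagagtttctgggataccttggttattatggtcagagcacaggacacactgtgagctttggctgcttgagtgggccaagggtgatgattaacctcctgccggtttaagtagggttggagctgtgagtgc
Fgb: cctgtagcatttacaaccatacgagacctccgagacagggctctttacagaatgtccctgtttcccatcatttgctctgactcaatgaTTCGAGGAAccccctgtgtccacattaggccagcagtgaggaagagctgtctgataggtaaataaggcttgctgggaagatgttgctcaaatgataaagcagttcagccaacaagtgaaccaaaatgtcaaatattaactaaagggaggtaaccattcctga
Apcs: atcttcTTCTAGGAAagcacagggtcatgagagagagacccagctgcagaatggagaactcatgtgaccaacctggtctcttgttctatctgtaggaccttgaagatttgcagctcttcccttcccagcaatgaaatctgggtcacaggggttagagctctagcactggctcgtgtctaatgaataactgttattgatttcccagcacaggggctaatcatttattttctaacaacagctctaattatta
On either strand of the 250 bases before to 50 after the start, this palindrome was present in 7 of 22 acute phase promoters matched (31.8%) and in 7.21% of the 9852 promoters of tested genes. The other 4 genes with a match, Itih4 (0.70), Hamp (0.14), Hamp2 (-0.42) and Steap4 (0.62), were not called. The match is a description of letters and not of binding.

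The receptors and signal carriers of the cytokine pathway moved in part. Of 23 genes of IL6, JAK and STAT3 signalling, 6 rose and 2 fell, beside 4.79% and 4.27% of all genes. Osmr, the receptor chain for oncostatin M, was at 18.3, 4, 30.2 and 7.93 CPM in pre-cachexia and 52.9, 44.1, 57 and 65.6 CPM in cachexia, a 3.67-fold rise (adjusted p = 0.000987). Il6ra, the receptor for interleukin-6 itself, was at 404, 163, 244 and 230.3 CPM and then at 583, 729, 566 and 587 CPM (1.24 ± 0.35 (SE), adjusted p = 0.0232), and its PBS values, 617, 373, 289.9 and 211 CPM, were spread between both, with PBS animal 1 in the cachexia range. Il1r1, the interleukin-1 receptor, rose by 1.44 and Stat3 by 0.58 on the log2 scale. Lifr, the receptor for leukaemia inhibitory factor, fell by 1.54, although pre-cachexia animal 1 (384 CPM) lay within the cachexia range. Socs3, the feedback inhibitor of the pathway, was at 3.77, 2.07, 1.84 and 5.44 CPM in PBS controls, 42.1, 28.4, 16.5 and 7.86 CPM in pre-cachexia and 22.5, 20.2, 32.2 and 10.1 CPM in cachexia. Socs3 rose in the first step (2.85, adjusted p = 0.000467) and was not called in the second (-0.16 ± 0.43 (SE), adjusted p = 0.879); the steps differed by -3.01 (adjusted p = 0.0194). The 6 rising genes were 1 when the 8 libraries were fitted alone and also 1 without pre-cachexia animal 2 or animal 4.

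Interferon-induced genes, which cells switch on against viruses and on T cell cytokines, went down between pre-cachexia and cachexia. Of 27 tested, 13 fell and none rose, all 27 had a negative log2 fold change, and the median was -1.07. Between PBS and pre-cachexia 15 of the 27 had risen and none had fallen, with a median of 1.13. Igtp, a GTPase of cell-autonomous immunity, was at 8.8, 13.7, 7.76 and 17.3 CPM in PBS controls, 55.7, 55.7, 30.8 and 30.8 CPM in pre-cachexia and 18.5, 10.7, 9.69 and 6.53 CPM in cachexia. It fell by 1.94 on the log2 scale (adjusted p = 0.000361), and the change from the first to the second step was -3.80 (adjusted p = 0.000168). Igtp was named for its small p in the second step, and both steps share the pre-cachexia animals. The step difference is therefore no separate evidence. In cachexia, animals 2 and 3 lay within the PBS range of Igtp, animal 1 just above it and animal 4 just below it. Irf7, the transcription factor that amplifies the interferon response, was at 13.5, 11.2, 9.59 and 8.3 CPM in pre-cachexia and 5.43, 3.45, 4.43 and 2.32 CPM in cachexia (adjusted p = 0.00017). Gbp3, a guanylate-binding protein, was at 4.37, 3.82, 2.16 and 5.1 CPM and then at 2, 0.355, 0.936 and 0.567 CPM (adjusted p = 0.000243).

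Antigen-processing genes of the list were among those that fell. Psmb8, a subunit of the immunoproteasome, was at 6.92, 5.43, 4.82 and 3.4 CPM in pre-cachexia and 2.04, 1.74, 2.16 and 1.08 CPM in cachexia, and Tap1, the peptide transporter, at 26.9, 21.2, 20 and 13.4 and 12.2, 9.83, 9.4 and 5.13 CPM. Psmb8, Psmb9 and Tap1 lie next to each other on chromosome 17, so they are not independent examples. For 4 antiviral genes, Ifit1 (-1.58), Ifit3 (-1.96), Mx1 (-1.81) and Rsad2 (-1.64), cachexia animal 1 was the highest of the cachexia group. In Ifit1 this animal, at 2.64 CPM, lay within the pre-cachexia range of 5.43, 3.52, 1.94 and 3.87 CPM. Several of these genes stand at a few CPM only. The direction was the same in Parp14, which is more abundant (-0.59, edgeR adjusted p = 0.0303), but its call was lost under 8 of 15 alternative settings. The count of 13 was 7 without cachexia animal 4, 8 without cachexia animal 2, 19 without cachexia animal 1 and 7 when the 8 libraries were fitted alone. The sums of the 6 T and NK cell markers tested (of 18 listed) overlapped between the stages. They were 7.965 to 24.6 CPM in PBS controls, 13.4 to 39.7 CPM in pre-cachexia and 9.69 to 18.5 CPM in cachexia. A change of the sum was not shown (exact permutation test, two-sided, p = 0.0857, adjusted p = 0.171), although none of the 6 had a positive log2 fold change. Of these markers, Cd4 fell from 0.988, 1.16, 1.44 and 0.629 to 0.28, 0.322, 0.288 and 0.216 CPM and Skap1 from 3.71, 5.29, 3.96 and 4.88 to 3.28, 1.39, 1.98 and 2.24 CPM; their part in the result was not tested.

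Promoters of 4 of the falling interferon-induced genes are shown because they hold the element to which interferon-activated factors are known to bind (GAAA, 2 bases of any kind, GAAA, on either strand, in capitals; this motif was added after the values had been seen). They are the 250 bases before the RefSeq start in GRCm38.p6, all on the plus strand: Ifit1 at chr19:34640639-34640888, Ifit3 at chr19:34583279-34583528, Gbp3 at chr3:142559794-142560043 with 2 overlapping matches, and Igtp at chr11:58199306-58199555.
Ifit1: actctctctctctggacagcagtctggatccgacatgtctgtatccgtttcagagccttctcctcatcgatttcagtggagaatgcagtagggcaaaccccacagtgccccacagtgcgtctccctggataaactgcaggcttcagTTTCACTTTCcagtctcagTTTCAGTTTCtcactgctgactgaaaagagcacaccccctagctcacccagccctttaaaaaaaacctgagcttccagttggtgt
Ifit3: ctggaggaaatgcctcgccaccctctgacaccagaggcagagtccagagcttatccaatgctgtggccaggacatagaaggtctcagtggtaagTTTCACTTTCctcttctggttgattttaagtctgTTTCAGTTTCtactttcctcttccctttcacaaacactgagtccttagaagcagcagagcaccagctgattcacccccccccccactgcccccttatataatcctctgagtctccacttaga
Gbp3: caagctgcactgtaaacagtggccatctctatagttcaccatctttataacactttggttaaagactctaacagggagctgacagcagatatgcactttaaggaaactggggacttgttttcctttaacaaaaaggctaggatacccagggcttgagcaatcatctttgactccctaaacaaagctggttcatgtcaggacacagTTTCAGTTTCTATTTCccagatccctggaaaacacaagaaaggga
Igtp: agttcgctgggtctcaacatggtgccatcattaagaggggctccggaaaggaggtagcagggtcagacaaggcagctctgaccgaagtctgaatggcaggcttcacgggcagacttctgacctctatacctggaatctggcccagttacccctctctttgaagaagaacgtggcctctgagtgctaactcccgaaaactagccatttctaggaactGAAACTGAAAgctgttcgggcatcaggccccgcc
The element was present in 13 of 22 promoters of the list that matched (59.1%) and in 310 of the 9852 promoters of tested genes (3.15%). Rsad2 held it too and fell. Stat2, Oas1a, Ddx58, Ifih1, Gbp2, Gbp7, Irgm1 and Trim12c also held it and were not called, with log2 fold changes from -1.47 (Gbp2) to -0.12 (Stat2).

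**Figure D2:**
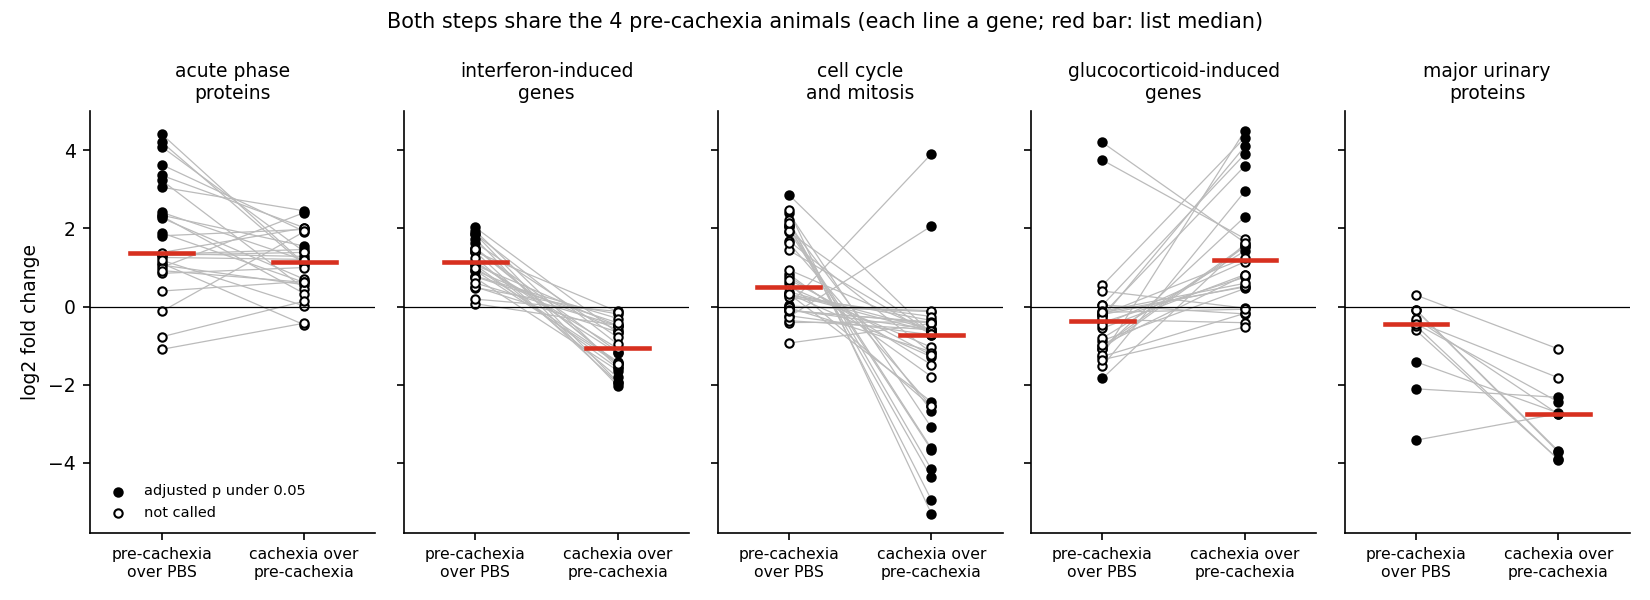
Each panel shows 1 gene list and each line 1 of its tested genes, with the log2 fold change of pre-cachexia over PBS on the left and of cachexia over pre-cachexia on the right (hepatocyte nuclei, 4 animals a group). Interferon-induced genes go from a median of 1.13 to one of -1.07, while acute phase proteins have positive medians in both steps, 1.37 and 1.14; both steps share the pre-cachexia animals.

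Glucocorticoid-induced genes rose in cachexia. Of 28 tested, 11 rose and none fell, with a median log2 fold change of 1.19. Between PBS and pre-cachexia, where 4.77% of all genes rose and 2.95% fell, 2 rose, 1 fell and the median was -0.37. Fkbp5, a co-chaperone of the glucocorticoid receptor and one of its best known targets, was at 234, 141, 99 and 80.5 CPM in PBS controls, 158, 43.5, 156 and 123 CPM in pre-cachexia and 722, 1780, 1074 and 2262 CPM in cachexia. It rose 12.2-fold between the tumour stages (adjusted p = 0.00212). Ddit4, an inhibitor of mTORC1, was at 2.1, 0.581, 1.85 and 1.13 CPM in pre-cachexia and 7.83, 33.6, 11.5 and 41.1 CPM in cachexia (adjusted p = 8.61e-05). Igfbp1, which binds insulin-like growth factors in plasma and is known to be repressed by insulin, was at 6.46, 2.92, 4.14 and 10.2 CPM and then at 109, 21.1, 82.6 and 261 CPM (adjusted p = 0.000414). Zbtb16 (2.95), Lpin1, a phosphatidate phosphatase (2.30), Cdkn1a, the cell cycle inhibitor p21 (3.91), and Gadd45b (4.5) rose as well.

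Tsc22d3, the glucocorticoid-induced leucine zipper, took a different course. It was at 912, 847, 694 and 537 CPM in PBS controls, 242, 167, 247 and 180 CPM in pre-cachexia and 326, 1084, 305 and 842 CPM in cachexia. It thus fell in the first step (-1.84, adjusted p = 0.0198) and rose in the second (1.61 ± 0.48 (SE), adjusted p = 0.0314), and the steps differed (adjusted p = 0.028). Cachexia animals 2 and 4 carried that rise, whereas animals 1 and 3 stayed below every PBS animal. The same animals 2 and 4 were the highest of the cachexia group for Fkbp5, Ddit4, Cdkn1a (0.839, 13.8, 1.33 and 6.56 CPM), Gadd45b (0.599, 7.87, 1.87 and 6.56 CPM) and Sult1e1, but not for Igfbp1, for which animal 2 was the lowest. The list's 11 rising genes were 6 without cachexia animal 4, without pre-cachexia animal 2 or without pre-cachexia animal 4.

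The sex-dependent targets of growth hormone moved apart: major urinary proteins and male-biased genes had the lowest medians of the 36 pathway lists, and female-biased genes rose. Ghr, the growth hormone receptor, was at 8566, 11060, 11290 and 12940 CPM in pre-cachexia and 6126, 5539, 4226 and 3712 CPM in cachexia, a 2.24-fold fall (adjusted p = 0.00342), while PBS controls had 5407, 12620, 12410 and 11160 CPM. Stat5b, which carries the signal, was not called (185, 177, 135 and 165 CPM, then 216, 169.5, 170.2 and 186 CPM; 0.17 ± 0.16 (SE), adjusted p = 0.609). Igf1, the main hormone made in response, was at 2231, 1614, 2619 and 2495 CPM and then at 3290, 1165, 2281 and 2362 CPM, with adjusted p = 0.989. A change of Igf1 was therefore not detected, within an SE of 0.53 on the log2 scale.

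Of 27 male-biased genes that depend on pulsed growth hormone, 17 fell and 1 rose, with a median log2 fold change of -2.10. Slco1a1, an organic anion carrier, was at 252, 704, 237 and 709.7 CPM in pre-cachexia and 71.3, 24.7, 15.1 and 22.4 CPM in cachexia, 14.3-fold lower (adjusted p = 2.69e-05). Ugt2b1, a glucuronosyltransferase, was at 124, 273, 184 and 186 CPM and then at 41.3, 29.5, 25.6 and 30.9 CPM. Cyp4a12a, a fatty acid hydroxylase, was at 181, 274, 382 and 342 CPM and then at 129, 53.4, 22.8 and 21.2 CPM, where animal 1 kept the highest level. The gene that rose was Omd, osteomodulin, a proteoglycan (0.782, 0.398, 0.36 and 0.849 CPM, then 1.64, 3.32, 1.73 and 3.27 CPM), whose whole span lies inside that of Cenpp on the other strand, so its reads may come from either gene. Among 11 major urinary proteins, pheromone carriers that male liver secretes, 9 fell and none rose, with a median of -2.74. Mup3 was at 441, 397, 545 and 232 CPM in PBS controls, 109, 188, 149.7 and 159 CPM in pre-cachexia and 31.3, 21.6, 21.2 and 17.7 CPM in cachexia, and it had fallen in the first step too (-1.41, adjusted p = 0.0204). Mup21 had lost most of its level by pre-cachexia, from 129.8, 133, 120.2 and 54.6 CPM to 7.41, 16.1, 6.84 and 10.1 CPM, and was at 1.36, 2.42, 0.972 and 1.32 CPM in cachexia. Mup12 and Mup1 were not called in the first step (-0.08 and -0.09) and fell in the second (-3.70 and -3.73); the difference of steps passed the test for both (adjusted p = 0.00349 and 0.00945). Major urinary protein genes are near-identical copies, so reads may be split among them, and their single values are uncertain.

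Female-biased genes, which male growth hormone pulses repress, rose: 9 of 25 tested rose and none fell, with a median of 1.07. Cux2, a transcription factor of female liver, was at 62.2, 5.25, 3.96 and 21.7 CPM in pre-cachexia and 359.8, 359, 843 and 675 CPM in cachexia. It rose 24.1-fold (adjusted p = 0.0107), and pre-cachexia animals 1 and 4 were already above animals 2 and 3. Cyp17a1 was at 3.09, 0.647, 0.54 and 1.42 CPM and then at 12.1, 55.5, 42.6 and 71.6 CPM. The falls of the male-biased list held when libraries were left out (14 to 17 genes), whereas the female-biased count was 4 without pre-cachexia animal 2 and 5 without cachexia animal 4.

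**Figure D3:**
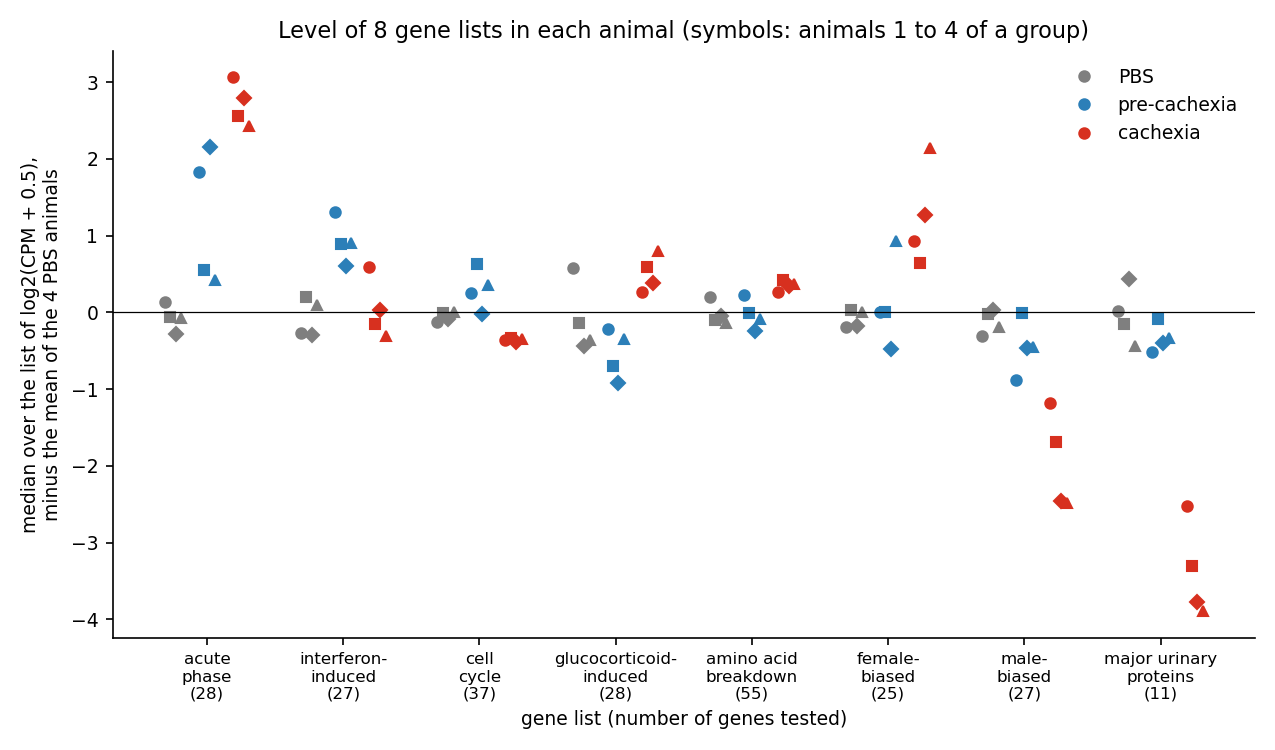
For 8 gene lists the y axis gives, in each animal, the median over the list of log2(CPM + 0.5) minus the mean of the 4 PBS animals; grey is PBS, blue pre-cachexia, red cachexia, and the symbols stand for animals 1 to 4 of a group. Interferon-induced genes are highest in pre-cachexia, and male-biased genes and major urinary proteins are lowest in cachexia. Mitotic genes are highest in pre-cachexia animals 1, 2 and 4, while pre-cachexia animal 3 (-0.0283) lies within the PBS range.

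Part of the enzymes that break down amino acids rose. Of 55 genes of amino acid breakdown and transport tested, 16 rose and none fell, 46 had a positive log2 fold change, and the median was 0.48. Between PBS and pre-cachexia 2 had risen, beside 4.77% of all genes. Sdsl, a serine dehydratase-like enzyme, was at 6.71, 3.67, 6.08 and 4.09 CPM in pre-cachexia and 13, 36.5, 29.1 and 37.6 CPM in cachexia (adjusted p = 9.87e-05). Mat1a, which makes S-adenosylmethionine from methionine, was at 2130, 1082, 598 and 1558 CPM and then at 4226, 2592, 5208 and 5483 CPM (adjusted p = 0.000322). Gldc, the glycine decarboxylase, was at 112, 80.2, 102 and 76.1 CPM and then at 209, 461, 212 and 549 CPM (adjusted p = 0.00375). Further along methionine metabolism Bhmt, which remethylates homocysteine, rose 6.24-fold from 452, 113, 356 and 306 CPM to 1947, 2282, 1471 and 1950 CPM. Got1, an aspartate aminotransferase, rose 5.46-fold, but cachexia animal 2, at 158 CPM, lay within the pre-cachexia range of 171, 73.5, 35.4 and 159 CPM. Tat and Tdo2, the first enzymes of tyrosine and tryptophan breakdown and known glucocorticoid targets, rose by 1.53 and 1.43. Sds, serine dehydratase, was not called (1.15, adjusted p = 0.15).

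Of 16 genes of the urea cycle and ammonia handling, 4 rose and none fell. Cps1, carbamoyl phosphate synthetase, the entry step of the cycle, was at 4223, 7580, 6858 and 6420 CPM in PBS controls, 4049, 2582, 2452 and 2834 CPM in pre-cachexia and 6249, 6692, 8153 and 13940 CPM in cachexia. Cps1 fell in the first step (-1.07, adjusted p = 0.0362) and rose in the second (1.56 ± 0.33 (SE), adjusted p = 0.00211), and cachexia animals 1 and 2 lay within the PBS range and animals 3 and 4 above it. The difference of steps was 2.63 (adjusted p = 0.00945). Arg1, arginase, rose by 1.01, Asl, argininosuccinate lyase, by 1.27, and the ornithine carrier Slc25a15 by 0.96. Cachexia animal 4, the highest for Cps1 and Mat1a, weighs on these counts: without it 6 of the amino acid genes and 1 of the urea cycle genes were called. Of 42 genes of gluconeogenesis, glycolysis and glycogen, 3 rose and 1 fell, beside 4.79% and 4.27% of all genes, and the median was -0.03. Those that rose were Gckr, the glucokinase regulator (0.53), Pfkfb1 (1.30) and Pfkfb2 (1.27), which set the level of fructose 2,6-bisphosphate. Gys2, liver glycogen synthase, fell by 1.57, with pre-cachexia animal 3 below every cachexia animal, and lost its call without pre-cachexia animal 2. Pck1, the key enzyme of gluconeogenesis, was not called (0.75, adjusted p = 0.247).

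Genes of fatty acid oxidation and ketone body synthesis went the other way. Of 42 tested, 11 fell and 1 rose, with a median of -0.38. Fabp1, the liver fatty acid binding protein, was at 169, 473, 132 and 267 CPM in pre-cachexia and 48.3, 11.1, 25.2 and 10.6 CPM in cachexia, 11-fold lower (adjusted p = 8.38e-05). Acaa1b, a peroxisomal thiolase, was at 198, 472, 145 and 463 CPM and then at 65.5, 19.2, 8.14 and 9.39 CPM. Bdh1, the last enzyme of ketone body synthesis, was at 98.8, 115, 50.9 and 107 CPM and then at 62, 28.5, 32.4 and 14.6 CPM. Falls were smaller for the mitochondrial enzymes Hadha (-0.73), Acaa2 (-0.62) and Decr1 (-1.19), and for Ppara, the nuclear receptor that drives the pathway (-0.88). Ppargc1a, a coactivator of the fasting response, was the gene that rose (1.28). Pre-cachexia animal 3 was the lowest of its group for Ppara (954 CPM), Bdh1 and Decr1, inside the cachexia range of all 3. The count of 11 was 5 without pre-cachexia animal 2, 15 without cachexia animal 1 and 3 when the 8 libraries were fitted alone.

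Part of the lipid synthesis and storage genes were called, where 4.79% of all genes rose and 4.27% fell. Of 31 genes of fatty acid and triglyceride synthesis, 2 rose and 4 fell; Fads2, a desaturase, fell by 1.33, Thrsp by 2.32, and Insig2, which holds sterol sensors in the endoplasmic reticulum, rose by 2.33. Among 19 lipid droplet genes 4 fell and 1 rose, with Ces1d, a carboxylesterase, at 788, 944, 415 and 1635 CPM and then at 464, 157, 150.3 and 178 CPM. Both counts of 4 falls depend on single libraries: that of synthesis was 1 without cachexia animal 4 or pre-cachexia animal 2 and 2 without cachexia animal 3 or pre-cachexia animal 4. That of lipid droplets was 1 without cachexia animal 3, cachexia animal 4 or pre-cachexia animal 4, and 2 without pre-cachexia animal 1.

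Drug and steroid metabolism genes split in both directions. Of 58 tested, 7 rose and 11 fell, with a median of -0.09. Aox3, an aldehyde oxidase, was at 637, 1073, 1039 and 854 CPM in pre-cachexia and 299, 112, 72.5 and 97.3 CPM in cachexia (adjusted p = 4.36e-05). Cyp39a1, an oxysterol hydroxylase, was at 6.34, 2.99, 3.78 and 5.6 CPM and then at 17.3, 68.7, 18.9 and 121 CPM (adjusted p = 0.000243). Sult1d1, a sulphotransferase, rose by 2.37 and Cyp2c39 by 2.51, while Cyp1a2 (-2.35), Cyp2a5 (-2.44) and Ugt2b35 (-1.90) fell. Genes of such families share sequence, so single members carry the same uncertainty as the urinary proteins. Of 32 NRF2 and antioxidant targets 9 fell and none rose, among them Gstp1, a glutathione transferase (-2.11), and Sod1, the cytosolic superoxide dismutase (-0.52). Nfe2l2, the gene of NRF2 itself, fell by 0.71 (adjusted p = 0.0443), a call that was lost under 10 of 15 alternative settings. Without pre-cachexia animal 2 the 9 were 3.

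Hepatocyte transcription factors showed 3 rises and 3 falls among 31 tested, where 4.79% of all genes rose and 4.27% fell. Cebpa, which maintains the adult hepatocyte programme, was at 41.7, 39.4, 33.1 and 28 CPM in pre-cachexia and 11.8, 15.8, 14.8 and 7.42 CPM in cachexia (2.85-fold lower, adjusted p = 0.000491). Foxa1 fell by 1.06 and Ppara as given above. Gata6 was at 28.4, 20.1, 45.2 and 24.6 CPM and then at 64.6, 77.9, 61.5 and 68 CPM (adjusted p = 0.000342), and Nfia (0.88) and Prox1 (0.85) rose as well. Prox1 lost its call under 10 of 15 alternative settings. The 3 rises and 3 falls were 1 and 1 without pre-cachexia animal 2, and 1 and 2 without cachexia animal 4 or pre-cachexia animal 4. Foxo1, the factor that insulin keeps out of the nucleus, was at 716, 778, 649 and 679 CPM in PBS controls, 451, 368, 359 and 495 CPM in pre-cachexia and 574, 886, 512 and 927 CPM in cachexia, where animals 2 and 4 were above every PBS animal and animals 1 and 3 below. Of 30 secreted hepatokines and growth factors, 6 rose and 1 fell, beside the same shares of all genes (4.79% and 4.27%). Those that rose were Igfbp1, Lbp and Itih3, given above, and Ahsg, fetuin-A (0.93), Smoc1 (0.75) and Inhbb, an activin chain at about 1 CPM or less (1.94). The 1 that fell was Inhbe, a hepatic activin chain, from 34.2, 47.3, 21.5 and 25.8 CPM to 6.95, 13.2, 11 and 5.24 CPM. The 6 rises were 3 without pre-cachexia animal 2 or 4 and 4 without cachexia animal 4.

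**Figure D4:**
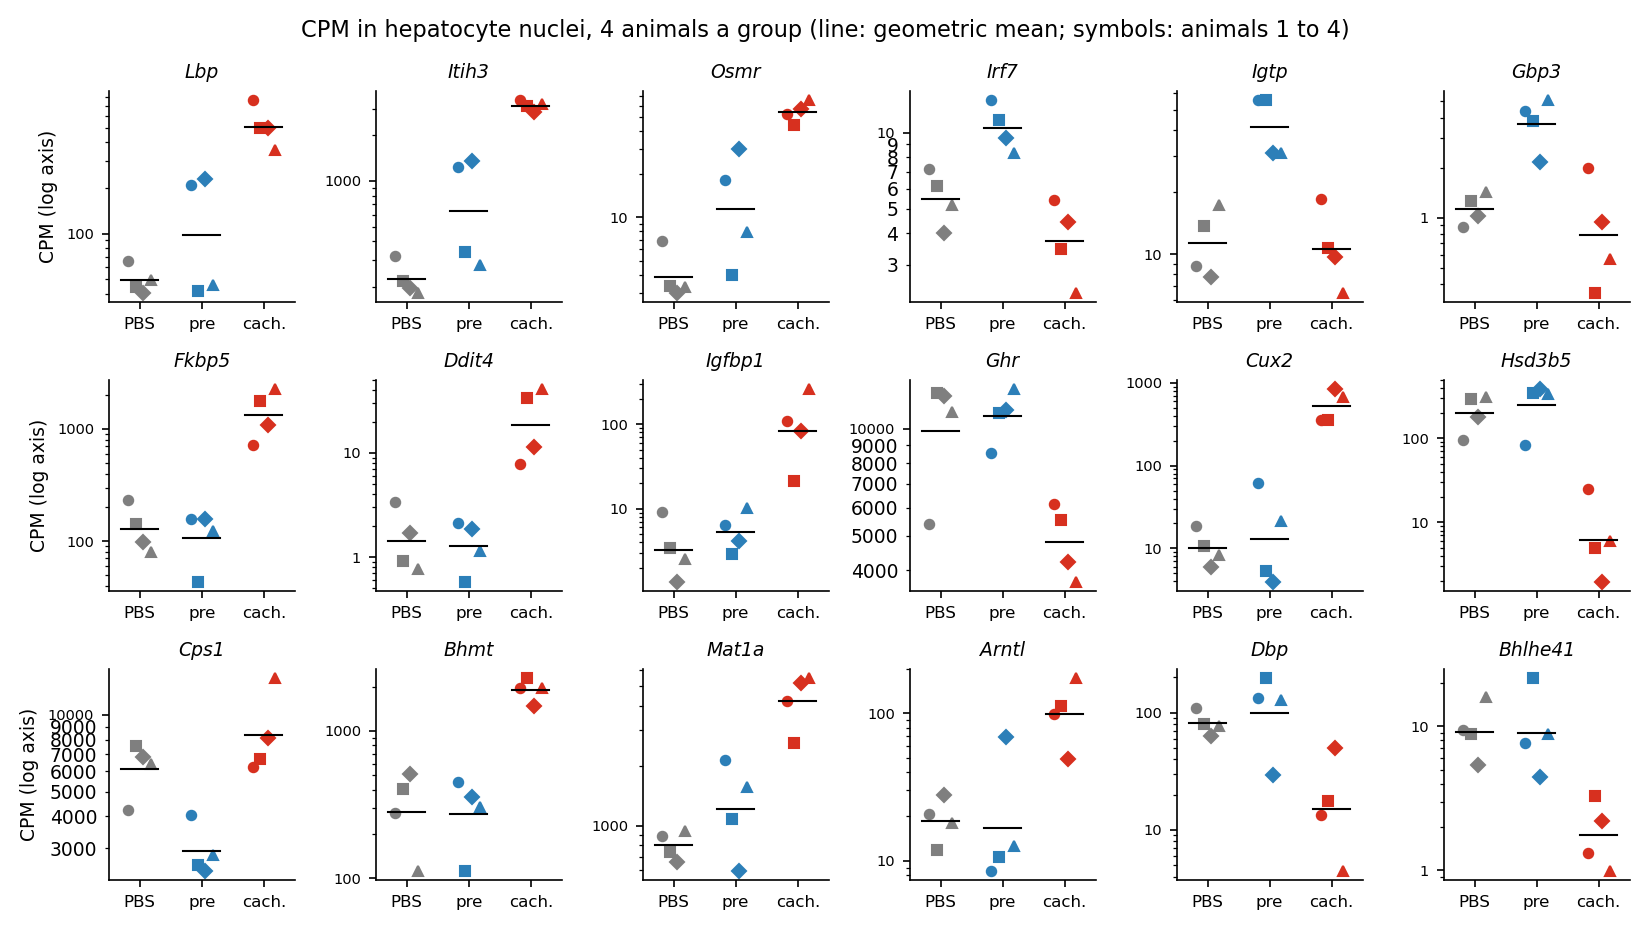
CPM of 18 genes in hepatocyte nuclei on log axes, with PBS in grey, pre-cachexia in blue and cachexia in red; symbols stand for animals 1 to 4 of a group and the line is the geometric mean. Lbp and Itih3 show the high pre-cachexia animals 1 and 3, Igtp and Gbp3 peak in pre-cachexia, and Arntl and Dbp show pre-cachexia animal 3 and cachexia animal 3 apart from their groups.

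The core clock of the liver is a loop in which Arntl (BMAL1) and its partner drive Per, Cry, Nr1d1, Dbp and Bhlhe41 through E-boxes, and Nr1d1 represses Arntl. Of 20 core clock genes, 1 rose and 4 fell, beside 4.79% and 4.27% of all genes. Arntl was at 8.61, 10.7, 68.7 and 12.6 CPM in pre-cachexia and 99, 112, 49.2 and 173 CPM in cachexia (adjusted p = 0.00624). Dbp, a transcription factor that passes the rhythm on, was at 133, 196, 29.4 and 128 CPM and then at 13.3, 17.6, 50 and 4.51 CPM (adjusted p = 0.000749). Nr1d1 was at 63, 137, 24.6 and 74.4 CPM and then at 10.5, 15.7, 39.2 and 4.13 CPM (adjusted p = 0.0047). In all 3 genes pre-cachexia animal 3 was shifted towards cachexia and cachexia animal 3 towards pre-cachexia, so the groups overlapped. Bhlhe41 (DEC2), a repressor, did not overlap: it was at 7.58, 21.5, 4.46 and 8.81 CPM in pre-cachexia and 1.32, 3.29, 2.2 and 0.998 CPM in cachexia (adjusted p = 0.000747). Nr1d2 was the other gene that fell (-0.75). The PBS animals had Arntl at 20.8, 11.8, 27.8 and 18.1 CPM, Dbp at 110, 79.7, 63.4 and 76.5 CPM and Nr1d1 at 82.9, 62, 43.4 and 55.2 CPM. The hour at which the pre-cachexia livers were taken is not given separately, so the hour of collection, a shift of the rhythm and a change of its level cannot be told apart.

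The other 15 core clock genes were not called, with log2 fold changes from -0.76 (Bhlhe40) to 1.29 (Cry1). Cry1, a repressor of the loop, missed the threshold narrowly (adjusted p = 0.0554) at 9.88, 16.7, 51.9 and 23 CPM in pre-cachexia and 41.8, 52.6, 28.9 and 123 CPM in cachexia, with animal 3 of each group again towards the other. Per1, another repressor, was at 57, 22.1, 63.4 and 41.5 CPM and then at 65.2, 112, 87.3 and 60.1 CPM (0.82 ± 0.40 (SE), adjusted p = 0.227). Fitted on the 8 libraries alone, 1 core clock gene was called lower and none higher. The promoter of Bhlhe41 (the 250 bases before the RefSeq start, GRCm38.p6, chr6:145865421-145865670, minus strand) is shown because it holds the E-box CACGTG, in capitals, which was present in 5 of 16 core clock promoters matched (31.2%) and in 9.90% of all. The other core clock genes with a match, Per1, Cry1, Ciart and Tef, were not called.
Bhlhe41: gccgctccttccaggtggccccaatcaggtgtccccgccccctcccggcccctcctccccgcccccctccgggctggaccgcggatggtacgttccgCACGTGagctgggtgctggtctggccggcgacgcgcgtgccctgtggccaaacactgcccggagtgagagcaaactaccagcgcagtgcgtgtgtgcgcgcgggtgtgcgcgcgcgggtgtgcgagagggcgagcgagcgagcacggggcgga

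Mitotic genes were low in hepatocyte nuclei throughout and fell in cachexia. Of 37 cell cycle genes tested, 12 fell and 2 rose, with a median of -0.72; between PBS and pre-cachexia 5 had risen and none had fallen. Top2a, the topoisomerase of dividing cells, was at 0.373, 0.841, 0.557 and 0.579 CPM in PBS controls, 1.44, 4.68, 0.585 and 3.02 CPM in pre-cachexia and 0.16, 0.0322, 0.108 and 0.162 CPM in cachexia. Its fall was -4.37 ± 0.73 (SE) (adjusted p = 0.000223), and the steps differed by -6.43 (adjusted p = 0.000686). Mki67, the proliferation marker Ki-67, was at 2.27, 7.59, 1.58 and 6.38 CPM in pre-cachexia and 0.28, 0.129, 0.504 and 0.513 CPM in cachexia (adjusted p = 0.00104). Pre-cachexia animals 2 and 4, which had the lower acute phase levels, had the higher Top2a and Mki67. The rising members were Cdkn1a and E2f7 (2.06), an inhibitor and a repressor of the cycle. The 12 falls were 8 without pre-cachexia animal 2 and 7 when the 8 libraries were fitted alone.

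Markers of other cells were examined beside these results. Of the 10 lists, endothelial markers (311 to 321 CPM in pre-cachexia, 345 to 484 CPM in cachexia), erythroid markers (26.8 to 47.9 and 4.26 to 10.3 CPM) and hepatocyte markers had sums that did not overlap, each with p = 0.0286 (exact permutation test, two-sided, 4 against 4), which is the smallest this design allows, and adjusted p = 0.0953 over the 10 lists. Among 21 endothelial markers 12 had a positive log2 fold change and the median was 0.11; the 1 called was Stab2, a scavenger receptor (117, 119, 117 and 116 CPM, then 212, 154, 233 and 182 CPM), and as a sum of log2 values the list gave adjusted p = 0.444 (exact permutation test). The erythroid difference was nearly all Alas2, the haem synthesis enzyme of red cell precursors (22.4, 44.6, 25.3 and 33 CPM, then 5.95, 6.87, 2.23 and 1.83 CPM). Among 10 hepatocyte markers 3 rose, Cps1 and Fgb (given above) among them, and 5 had a positive log2 fold change. As a sum of log2 values the hepatocyte list gave adjusted p = 0.19 (exact permutation test). Myeloid markers summed to 1527 to 2159 CPM and 2069 to 3853 CPM, of which Fn1, fibronectin, which hepatocytes also secrete, was nearly the whole (3294, 2054, 3127 and 3840 CPM in cachexia). Of 19 Kupffer cell and macrophage markers 1 rose and none fell, while 4 had a positive log2 fold change and the median was -0.28; the 1 that rose was Cd163, a scavenger receptor (7.12, 3.44, 7.25 and 6.54 CPM, then 14.9, 13.1, 17.6 and 17.7 CPM). Of 20 stellate cell markers none rose and 1 fell, with a median of -0.25; Col3a1, a collagen, fell (14.6, 13.7, 13.1 and 15.9 CPM, then 7.23, 6.64, 7.06 and 3.18 CPM). The part of these markers in the gene results was not tested. With 1 called marker each, the endothelial, macrophage and stellate cell lists were near the share over all genes (4.79% rose, 4.27% fell).

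Whole liver nuclei of the same 8 animals gave 639 genes that rose (4.65% of 13738 tested) and 952 that fell (6.93%). All 27 interferon-induced genes were also tested there, and 24 of them fell. Acute phase proteins rose in 18 of 28, glucocorticoid-induced genes in 13, and amino acid genes in 17. In whole liver nuclei the log2 fold changes were -1.83 for Igtp, 1.99 for Itih3, 3.48 for Fkbp5, 1.49 for Cps1, -1.14 for Ghr and -4.91 for Hsd3b5. Hepatocyte nuclei make up part of these samples, so they are not an independent check.

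Cachexia with 8025 cells, in other animals of another strain, was set beside the C26 stages. That comparison is with PBS, not with a pre-cachexia stage; 16.1% of genes rose and 13.1% fell in it. Of the 636 genes that rose between the C26 stages, 339 (53.3%) also rose with 8025, which is 15.8% of the genes that rose there, and 5 fell. Of the 567 that fell, 265 (46.7%) also fell with 8025, which is 15.3% of those that fell there, and 21 rose. Acute phase proteins rose in 24 of 28 and fell in 1 with 8025 (median 2.89), and 18 of 27 male-biased genes fell (median -2.31). For interferon-induced genes 5 of 27 rose and none fell (median 0.24), and for glucocorticoid-induced genes 8 of 28 rose and 3 fell (median 0.19). The 8025 log2 fold changes were -8.67 for Hsd3b5, 3.85 for Itih3, 4.21 for Igfbp1, 6.76 for Sult1e1 and -1.19 for Ghr. Cps1, at -0.22 (adjusted p = 0.633), and Tsc22d3, at -0.80 (adjusted p = 0.215), were not called with 8025. Lpin1 fell with 8025 (-1.59, adjusted p = 0.0487) and rose between the C26 stages (2.30).

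**Figure D5:**
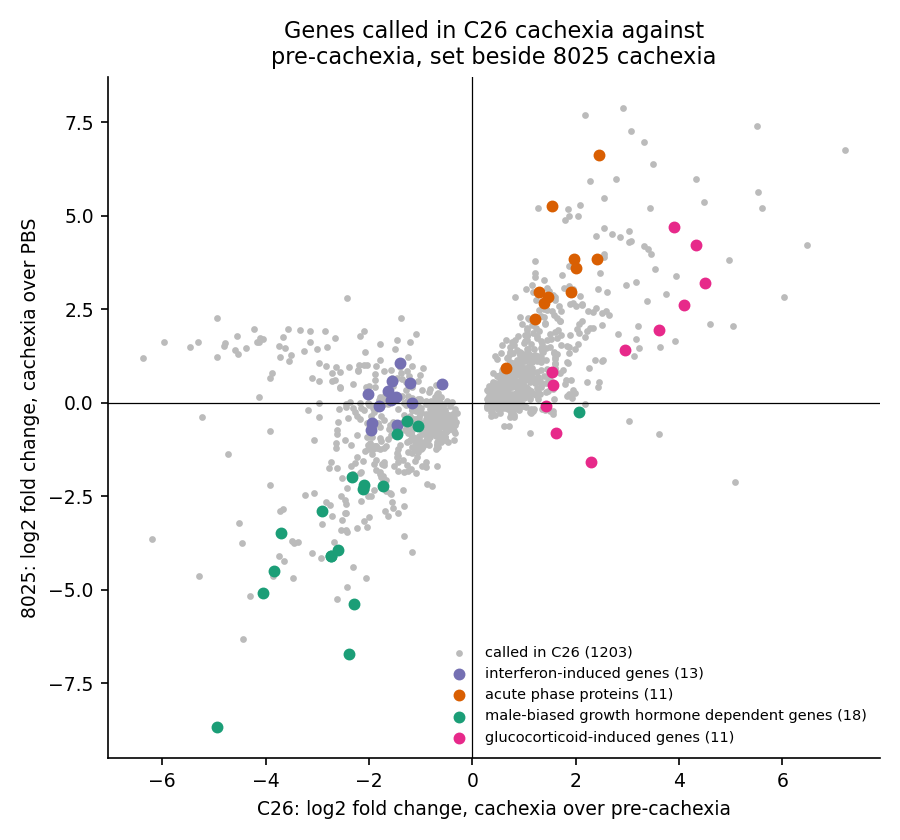
Each point is a gene called between the C26 stages, with its log2 fold change of C26 cachexia over pre-cachexia on the x axis and of 8025 cachexia over PBS on the y axis (hepatocyte nuclei, 4 animals a group, no shared library). Of 636 genes that rose on the x axis 339 were also called higher on the y axis, and of 567 that fell 265 were also called lower.

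Over all genes the steps themselves differed for 407 genes: 143 (1.08% of those tested) changed more towards higher levels in the second step than in the first, and 264 (1.99%) more towards lower levels. Interferon-induced and mitotic genes named above (Igtp, Gbp3, Tap1, Top2a, Mki67) were among the latter, with step differences of -3.80, -3.77, -2.64, -6.43 and -5.66. Cps1, Tsc22d3, Foxo1 (1.55) and Gldc (3.15) were among the former. Since the pre-cachexia animals enter both steps with opposite sign, their spread alone moves this difference. The counts were 18 to 340 higher and 88 to 498 lower when single libraries were left out. The genes named here were chosen with their second-step values known, so their step differences are no separate evidence.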

How the data were processed

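Nuclear RNA of 36 livers was sequenced from hepatocyte nuclei and whole liver nuclei. The authors deposited raw counts per gene; per the file headers a gene was counted from its start to its end, introns included. Alignment was to mm10 with STAR 2.4.2a, and DESeq2 1.24.0 is named without its role, per the submitters' processing notes. Libraries were stranded per the labels' protocols, and whether counting used the strand is not given in the sources used here. Of the genes named, 9 overlap another gene (largest for Omd, 100%, Cp, 26.2%, and Dbp, 14.9%).

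From the counts, edgeR 4.0.16 (R 4.3.3) fitted all 36 hepatocyte libraries in 9 groups, with TMM scaling, filterByExpr and robust quasi-likelihood tests; adjusted p is Benjamini-Hochberg over 13274 genes, called under 0.05, and SE was derived from the F statistic. Whole liver libraries were fitted likewise. On simulated counts, 74% of genes raised 2-fold and 52% of genes lowered 2-fold were called. The groups and lists were chosen with earlier results of these data known, and so were the genes named: the 12 largest changes each way with at least 5 CPM and no overlap (leaving aside Y-linked genes, small RNA, pseudogenes and models without a proper name), the 3 called genes of smallest p and the most abundant uncalled gene of each list, the core clock, Lbp, Itih3, Igfbp1, Saa1 and Igf1, and the 2 most abundant markers of each cell type. Of these a part is described. Genes named beyond that rule (among them Fkbp5, Tsc22d3, Il6ra, Socs3, Fgb, Apcs, Psmb8, Tap1, Bhmt, Tat, Ppara and Omd) were chosen after their values were seen. Alternatives were DESeq2 1.42.0, other scaling, no filter, fewer groups, a replicate block and leaving out libraries.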

Additional observations from a re-analysis of the deposited data

Results flagged for a closer look

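Each group of 4 was searched for an animal whose gap to the nearest other took up a larger share of the group's range than Dixon's critical value for 4 samples. Chance alone gives such an animal in about 1 in 20 groups if values are independent and normally distributed, which was not checked here. The groups examined were 380 (the genes named, the list medians and the marker sums, in both stages). Of these, 25 held one, which is near that share.

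Cachexia animal 1 stood apart in Bmper at 79.9 CPM, below the others at 268 to 284 CPM, and in Ces1d at 464 CPM, above the others at 150.3 to 178 CPM. It also stood apart in Gbp10 at 6.03 CPM, above the others at 0.548 to 0.756 CPM, and in Mx1 at 3.75 CPM, above the others at 0.729 to 1.12 CPM. This animal stood apart as well in Nrep at 16.6 CPM, above the others at 2.88 to 3.32 CPM, and in Rsad2 at 3.24 CPM, above the others at 0.774 to 0.864 CPM. This animal stood apart as well in Slco1a1 at 71.3 CPM, above the others at 15.1 to 24.7 CPM. Cachexia animal 2 stood apart in Gstp1 at 47.4 CPM, above the others at 10.6 to 16.4 CPM, and in Il6ra at 729 CPM, above the others at 566 to 587 CPM. It also stood apart in Pck1 at 621 CPM, below the others at 1739 to 1922 CPM. Cachexia animal 4 stood apart in Acaa2 at 96.4 CPM, below the others at 140.2 to 144 CPM, and in Col3a1 at 3.18 CPM, below the others at 6.64 to 7.23 CPM. It also stood apart in E2f7 at 23 CPM, above the others at 3.29 to 6.47 CPM, and in Nfia at 6147 CPM, above the others at 3588 to 3998 CPM. Pre-cachexia animal 1 stood apart in Hsd3b5 at 83.1 CPM, below the others at 338 to 385 CPM, and in Lpin1 at 367 CPM, above the others at 154 to 188 CPM. It also stood apart in Slc25a15 at 158 CPM, above the others at 120 to 123 CPM. Pre-cachexia animal 2 stood apart in Cdkn1a at 0.681 CPM, above the others at 0.206 to 0.27 CPM, and in Sod1 at 76.3 CPM, above the others at 63.2 to 65 CPM. Pre-cachexia animal 3 stood apart in Arntl at 68.7 CPM, above the others at 8.61 to 12.6 CPM, and in Ppargc1a at 53.5 CPM, below the others at 149 to 157 CPM. For IL6, JAK and STAT3 signalling genes, cachexia animal 4 had 0.123 (median log2 level minus that of the PBS animals), and the other 3 had 0.474 to 0.52. For insulin and FOXO signalling genes, pre-cachexia animal 3 had -0.412 (median log2 level minus that of the PBS animals), and the other 3 had -0.0924 to -0.0277. For cholangiocyte markers, pre-cachexia animal 1 had a summed level of 831 CPM, and the other 3 had 953 to 959.5. For cholangiocyte markers, cachexia animal 1 had a summed level of 1030 CPM, and the other 3 had 775 to 816.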

How the results depend on the processing

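Between the C26 stages 802 genes rose and 681 fell by DESeq2, 653 and 559 with DESeq2-type size factors, and 568 and 512 with no filter on low counts. Fewer were called when the spread came from fewer libraries: 410 and 368 with the libraries of the C26 cohort alone, and 341 and 256 with the 8 libraries alone. Leaving out single libraries gave 283 to 691 higher and 272 to 709 lower, with the low ends without cachexia animal 4 (283 and 276) and without pre-cachexia animal 2 (324 and 272) and the high end without pre-cachexia animal 3. Between PBS and pre-cachexia, 301 genes were higher with the cohort alone and 207 with the compared groups alone, and 230 to 895 with single libraries left out. Of the genes lower in that step, the counts were 618 by DESeq2, 100 with the cohort alone, 85 with the compared groups alone, and 97 to 738 with single libraries left out. For the step difference, 304 were higher by DESeq2 and 62 with the cohort alone (18 to 340 with libraries left out), and 134 were lower with the cohort alone (88 to 498). In whole liver nuclei 547 genes were lower with the compared groups alone, and leaving out libraries gave 321 to 735 higher and 464 to 1162 lower. The cause of these shifts was not tested.

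Same-numbered animals of both stages did not deviate together (correlations 0.175, 0.0099, -0.227 and 0.156), so no pairing by these replicate numbers was seen. A replicate block gave 595 genes higher and 511 lower. The animal numbers in the library names follow another order, and a block by them was not tested. Of 130 called genes named in the text, 75 were called under all 15 alternatives and none reversed in any of the 15. Calls were lost most often without pre-cachexia animal 2 (39 genes), with the 8 libraries alone (37), without cachexia animal 4 (36) and without pre-cachexia animal 4 (25). Calls lost under more than 7 of the alternatives were those of Fgb (11), Nfe2l2 and Prox1 (10 each), Il1r1 and Lifr (9 each), and Asl, Inhbb, Parp14 and Smoc1 (8 each). Of genes not called, Igf1 changed sign, with -0.227 to 0.235 when libraries were left out, and so did Socs3 (-0.453 to 0.252), Hamp (-0.131 to 0.433) and Hamp2 (-1.01 to 0.391). Among marker sums the difference reversed for neutrophils without cachexia animal 4 (0.166 CPM, and -0.317 CPM at the other end) and for cholangiocytes as a sum of log2 values (0.324). Depth limits the mitotic and several interferon-induced genes, which stand at a few CPM or less.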

Other observations

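Genes outside every list were looked at after their values had been seen and are examples, not a summary. Other interferon-linked genes fell: Gbp10 was at 20.6, 22.5, 10.4 and 19.8 CPM in pre-cachexia and 6.03, 0.548, 0.756 and 0.675 CPM in cachexia, a log2 fold change of -3.23 (edgeR, adjusted p = 0.000755). Gbp6 (-1.90), Irgm2 (-1.69), Apol9a (-1.91), Apol9b (-1.86), Ly6e (-1.39) and Irf5 (-1.42) fell as well, and so did Cd74, the invariant chain of antigen presentation (-1.89). Gbp and Apol9 genes lie in families of close copies, so their single values are uncertain.

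Lepr, the receptor for leptin, was at 2.27, 1.99, 1.71 and 3.43 CPM in pre-cachexia and 5.63, 13.6, 26 and 31.9 CPM in cachexia (3.04, adjusted p = 0.00549), with every cachexia animal above every pre-cachexia animal. Acmsd, which steers tryptophan away from NAD synthesis, rose by 3.22 and Cdo1, the cysteine dioxygenase, by 2.33. Nrg4, a secreted neuregulin, rose by 1.87. F3, tissue factor, fell by 1.79, and the developmental regulators Id2 (-1.78), Hes6 (-2.02) and Hhex (-1.10) fell too. Notum, a secreted inhibitor of Wnt signalling, fell by 1.44.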
